A study of Homo sapiens with 6 samples.

Results

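The 52 genes described here encode the machinery that copies DNA in S phase: the origin recognition complex, the licensing factors, the MCM2-7 helicase and its activators, the replicative polymerases, the sliding clamp and its loader, the single-strand binding protein RPA, the enzymes that join Okazaki fragments, and the enzymes that supply deoxynucleotides. They were taken by name, as known parts of this machinery, with no measured value in the rule, although earlier results of these data were known when the list was drawn up. All 52 were among the 17149 genes listed in every library, found by gene number, and all 52 passed the expression minimum that left 11135 genes for testing. Their genes lie on 21 chromosomes, with at most 6 on any of them.

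RNA was sequenced from MDA-MB-231 cells, an established human line of triple negative breast cancer, 48 h after transfection with siRBCK1, a small interfering RNA against the ubiquitin ligase gene RBCK1, or with siControl, a negative control siRNA. Each group had 3 libraries. Both groups are the same line without any other treatment named, and which RBCK1 siRNA was sequenced is not given in the sources used here. No source says whether the libraries came from separate cultures, so a p-value here reflects variation among libraries that could be technical. Values are FPKM, fragments mapped to a gene scaled by its transcript length and by the mapped fragments of the library, so that levels of different genes can be set side by side per length.

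A cell in G1 loads the MCM2-7 ring onto origins with the origin recognition complex, CDC6 and CDT1, and geminin keeps CDT1 from doing so again after S phase has begun. The kinase CDC7 with DBF4 phosphorylates the ring, CDC45 and the GINS complex join it, MCM10 helps the assembled helicase to start, and the active helicase unwinds DNA ahead of the polymerases. Many of these genes are transcribed in late G1 and S phase under E2F transcription factors, so their mRNA is often read as a sign of cycling cells. In bulk RNA, a larger share of cells in a cycle phase and more mRNA per cell cannot be told apart.

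RBCK1 itself had 41.5, 46.1 and 45.6 FPKM in siRBCK1, against 64.96, 63.6 and 73.4 FPKM in siControl. The mean was 0.66 of that in siControl (log2 fold change -0.59, SE 0.07, adjusted p = 6.55e-05), and the groups did not overlap. Of 9 markers of this line, VIM, CD44, CAV1, AXL, LGALS1, S100A4, KRT8 and KRT18 were above 100 FPKM in every library and EGFR ranged from 12.7 to 22.2 FPKM. CAV1 and EGFR were called higher, and CD44, LGALS1, S100A4 and KRT8 lower, with log2 fold changes from -0.59 for LGALS1 to 0.39 for EGFR. Of 7 luminal or epithelial markers, ESR1, PGR, CDH1 and FOXA1 were below 1 FPKM in every library, EPCAM ranged from 6.73 to 8.78 FPKM and GATA3 from 4.07 to 5.99 FPKM. The last, ERBB2, averaged 18.2 FPKM in siRBCK1 and 13.0 FPKM in siControl cells. The markers of leukocytes and endothelium examined were at or below a mean of 0.323 FPKM in both groups, apart from CD68 and CD14, which averaged 90.6 and 2.05 FPKM in siRBCK1 and 104 and 3.23 FPKM in siControl cells. FPKM summed to 587248.4 to 594194.1 in siRBCK1 libraries and to 614082.0 to 659065.0 in siControl libraries. The values come without read totals, and sequencing depth is therefore unknown.

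Most of the replication genes were higher after RBCK1 silencing, by modest amounts. A gene was called at an adjusted p below 0.05. Of the 52 members, 36 were called higher, against 36.8% of all 11135 tested genes, and 5 were called lower, against 17.1% of all tested genes. The other 11 were not called, a group of ORC2, ORC4, CDT1, MCM5, PRIM2, POLD1, POLE3, RFC2, RPA1, RPA3 and TK1. The median log2 fold change of the members was 0.29, on the log2(FPKM + 1) scale, beside 0.11 for all tested genes, and 38 members lay above that all-gene median. The members ranged from -0.34 for POLD3 to 0.86 for MCM3.

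Groups of libraries did not overlap for 38 members that were higher in siRBCK1, against 42.7% of all tested genes, and for 6 that were lower, against 20.1%. The summed FPKM of the 52 genes was 2352 to 2390 in siRBCK1 libraries and 2009 to 2033 in siControl libraries. Relative to the siControl mean, the median difference of the members in a single library was 0.28, 0.30 and 0.30 on the log2 scale in siRBCK1, against 0.02, 0.04 and -0.05 in siControl. A fold of the means of 1.5 or more was reached by 6 members, MCM3, RFC1, TIPIN, WDHD1, DUT and PCNA, and by none in the other direction. The share of all tested genes past that fold is not given here, so this count describes the members only.

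The scale of the libraries bears on these counts. Trimmed-mean scaling of the libraries moved the median of all tested genes to 0.01 and left 25 members higher and 7 lower, with a median of 0.17, against 24.7% of all tested genes higher and 25.4% lower under that scaling. Genes with longer transcripts and lower GC content were higher in siRBCK1 across the whole table (Spearman correlation across 11059 genes of 0.242 with length and -0.286 with GC content, with no p because genes are not independent). Median transcript length was 3120.5 nt in the members and 3318 nt in all tested genes, and median GC content was 45.7% in the members and 48.9% in all tested genes. After removal of both trends, 29 members were higher and 6 lower, against 24.9% higher and 26.2% lower of the 11059 genes with a length and GC value. Under all 14 alternative settings that tested them, 24 members kept the call of higher. Of the members called as reported, 25 stayed higher under quantile normalization, trimmed-mean scaling and removal of the trends. Under the same settings 4 stayed lower, MCM4, GINS2, POLD3 and POLE2. ORC4 and RFC2, not called as reported, were also called lower under each of those settings. How many of all tested genes kept a call in this way is not given here, so these counts describe the members only.

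**Figure D1:**
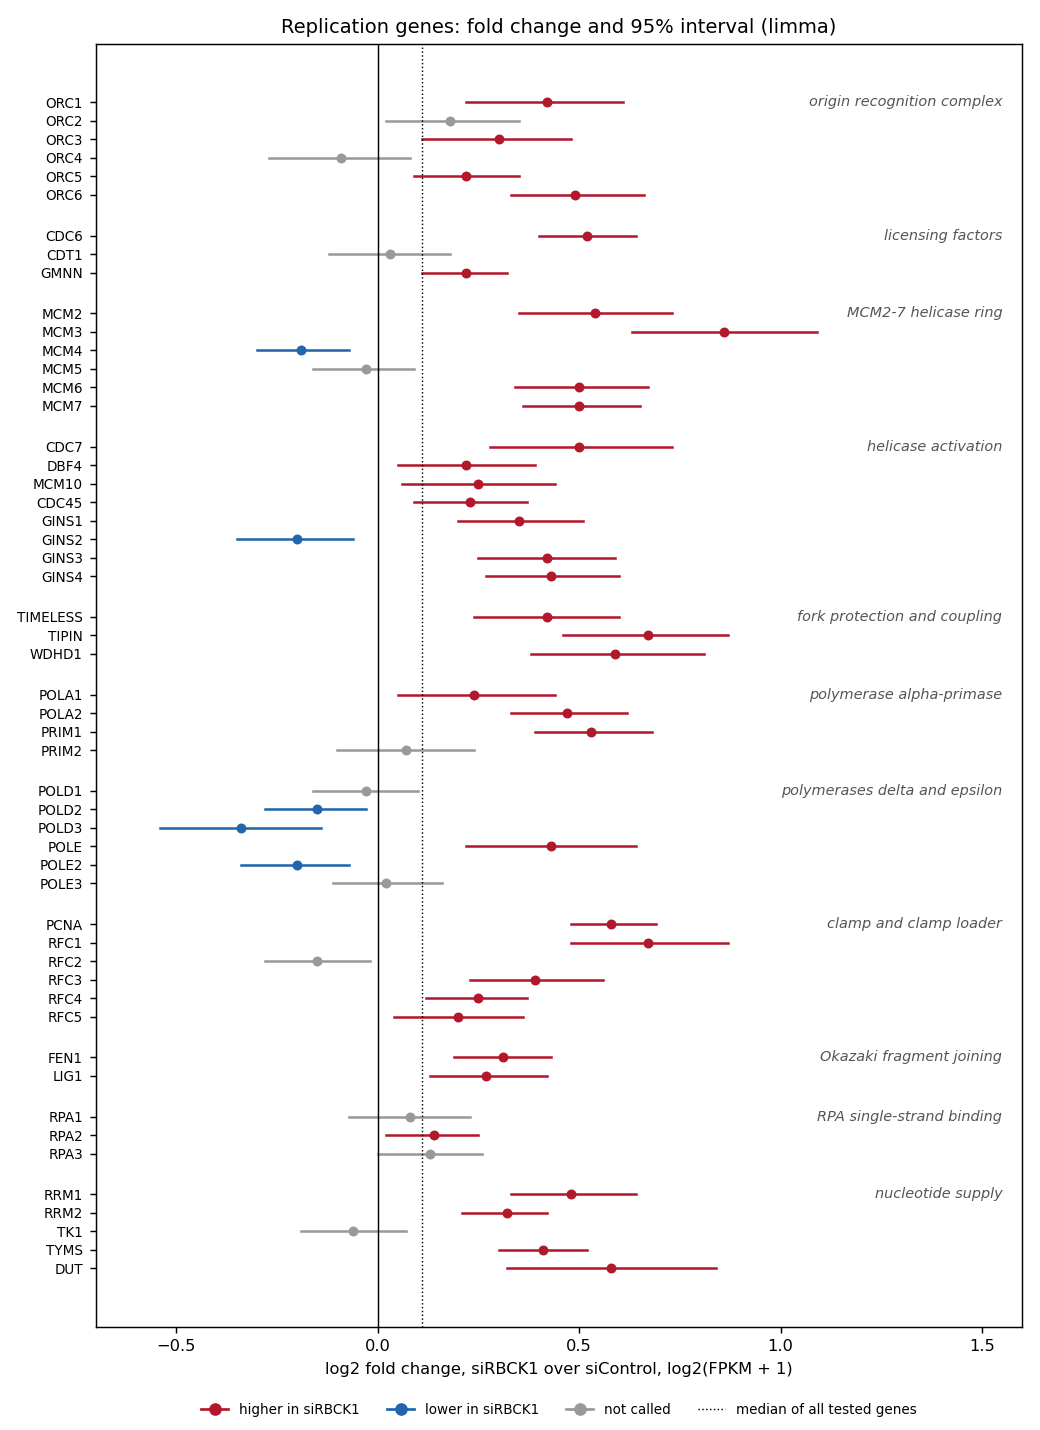
Log2 fold change on the log2(FPKM + 1) scale, siRBCK1 over siControl, for the 52 replication genes in order of role. Points are limma estimates with 95% intervals, the dotted line marks the median of all tested genes at 0.11, and 36 genes are called higher and 5 lower.

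Promoter sequence did not enter the rule for the genes, but many genes of this machinery are known to be transcribed under E2F factors. The share of E2F-type matches therefore describes the chosen genes, and not an effect of siRBCK1. For 46 of the 52 members RefSeq (GRCh38.p14) gave the 300 bases around the gene start, 250 before and 50 after it, and for 41 of these 46 that start was the start of the RefSeq gene itself. These windows were searched on both strands for 4 spellings of the E2F-type element (TTTCGCGC, TTTGGCGC, TTTCCCGC and TTTGGCGG). At least 1 occurred in 21 of the 46 (45.7%), beside 5.94% of the 9211 promoters of tested genes and 3.43% of all 27305 promoters in the table. Windows of 60 bases are shown for 6 members called higher, the 2 with a match that were called lower, and the 1 with a match that was not called. Capitals mark the matched letters, read 5′ to 3′ on the strand of the gene, so a match to the other strand appears as its reverse complement. Matches on opposite strands can overlap, as TTTCGCGC does with itself in MCM2 and with TTTGGCGC in MCM6.
MCM2: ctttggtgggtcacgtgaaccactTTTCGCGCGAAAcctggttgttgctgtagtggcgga
MCM3: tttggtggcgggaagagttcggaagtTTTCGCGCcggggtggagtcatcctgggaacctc
MCM6: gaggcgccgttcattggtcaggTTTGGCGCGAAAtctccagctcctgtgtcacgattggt
MCM7: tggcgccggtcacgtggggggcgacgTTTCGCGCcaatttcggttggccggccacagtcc
PCNA: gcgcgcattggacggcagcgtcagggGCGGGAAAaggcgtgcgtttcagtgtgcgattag
CDC6: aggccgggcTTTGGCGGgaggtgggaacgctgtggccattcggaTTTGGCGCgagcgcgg
CDT1: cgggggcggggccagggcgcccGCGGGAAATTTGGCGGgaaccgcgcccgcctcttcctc
GINS2: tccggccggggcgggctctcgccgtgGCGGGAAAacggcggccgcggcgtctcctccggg
POLE2: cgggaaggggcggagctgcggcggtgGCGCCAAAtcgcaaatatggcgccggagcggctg
The windows lie, in the same order, at chr3:127598389-127598448 (plus strand), chr6:52284713-52284772 (minus strand), chr2:135876496-135876555 (minus strand), chr7:100101373-100101432 (minus strand), chr20:5126648-5126707 (minus strand), chr17:40287842-40287901 (plus strand), chr16:88803732-88803791 (plus strand), chr16:85688952-85689011 (minus strand) and chr14:49688186-49688245 (minus strand). A match is a stretch of letters, and no binding was measured.

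Of the 21 members with an E2F-type match, 18 were called higher, 2 lower (GINS2 and POLE2) and 1 was not called (CDT1), with a median log2 fold change of 0.41. Of the 25 members with a promoter but no match, 16 were higher, 1 was lower and 8 were not called, with a median of 0.22. Over the 547 tested genes whose promoter held a match, 42.4% were called higher and 15.0% lower, with a median of 0.15. The CCAAT box, searched on both strands, occurred in 24 of 46 members (52.2%) and 36.9% of tested promoters. Of those 24, 20 were called higher, 2 lower and 2 were not called. Their median was 0.42, against 0.23 for the members without it, a difference like that for the E2F-type match. Over all tested genes with a CCAAT box, 38.9% were called higher and 16.5% lower, with a median of 0.12. TTTGAA, the cell cycle genes homology region of many mitotic genes, occurred in 2 of 46 members (4.35%) and in 9.21% of tested promoters.

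**Figure D2:**
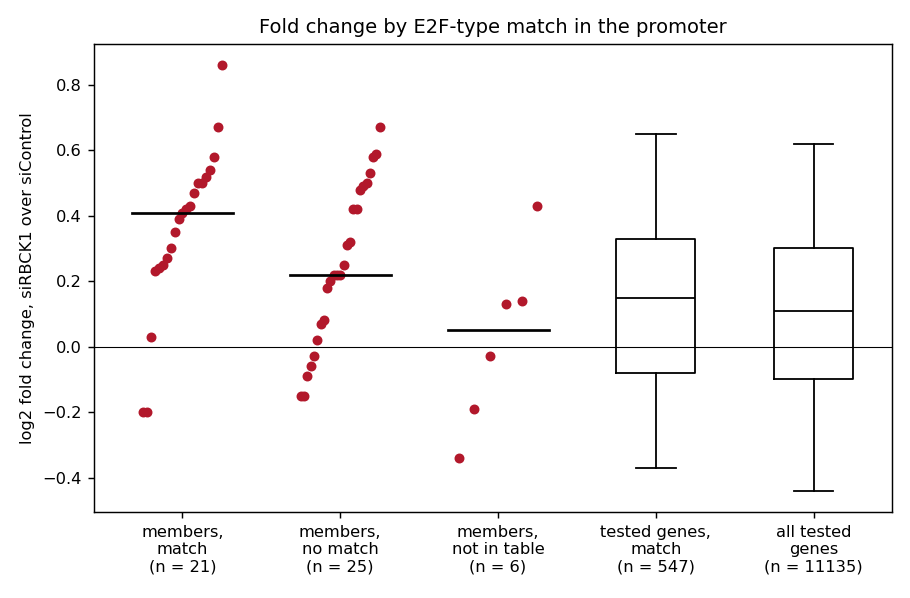
Log2 fold change of siRBCK1 over siControl for members with an E2F-type match (21), members without (25) and members outside the promoter table (6), each point a gene and each line the median, beside boxes for tested genes with a match (547) and for all tested genes (11135). Boxes span the quartiles and whiskers the central 90% of genes, and the members with a match have a median of 0.41, against 0.22 without one and 0.15 for tested genes with a match.

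The origin recognition complex, which marks the sites where replication can start, was called higher for 4 of its 6 subunits. ORC1, the large ATPase subunit, had 7.71, 7.96 and 7.67 FPKM in siRBCK1, against 6.27, 5.64 and 4.91 FPKM in siControl (log2 fold change 0.42, SE 0.09, adjusted p = 0.00252). ORC6 had 24.5, 23.3 and 20.8 FPKM in siRBCK1, against 15, 16.9 and 15.9 FPKM in siControl (log2 fold change 0.49, SE 0.07, adjusted p = 0.000371). Both had all 3 siRBCK1 libraries above all 3 siControl libraries, and both were called under every setting. ORC3 had 14.7, 13.3 and 14.1 FPKM in siRBCK1, against 12.4, 11.6 and 9.85 FPKM in siControl (log2 fold change 0.30, SE 0.09, adjusted p = 0.0132). For ORC5 the values were 17.2, 18.02 and 18.1 FPKM in siRBCK1, against 15.4, 14.6 and 15.2 FPKM in siControl. The calls of both were lost under quantile normalization, trimmed-mean scaling and removal of the length and GC trends, that of ORC3 also in the unmoderated linear model and without siRBCK1 replicate 1, and that of ORC5 also without siRBCK1 replicate 3 (adjusted p up to 0.161 for ORC3 and 0.239 for ORC5). ORC2 was not called, at 10.8, 9.59 and 10.4 FPKM in siRBCK1, against 9.16, 9.24 and 8.30 FPKM in siControl (adjusted p = 0.058), although its groups did not overlap. ORC4 was the 1 subunit with a negative estimate, at 10.7, 10.01 and 11.4 FPKM in siRBCK1, against 11.2, 12.6 and 10.6 FPKM in siControl (log2 fold change -0.09, adjusted p = 0.344), and it was called lower under both of those scalings and after removal of the trends.

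Among the licensing factors, the loader CDC6 rose and its partner CDT1 did not pass the test. CDC6 had 37.7, 36.5 and 37.6 FPKM in siRBCK1, against 26.3, 26.4 and 24.6 FPKM in siControl (log2 fold change 0.52, SE 0.06, adjusted p = 4.28e-05). GMNN, which encodes the CDT1 inhibitor geminin, had 75.3, 73.2 and 74.5 FPKM in siRBCK1, against 64.4, 62.4 and 64.5 FPKM in siControl (log2 fold change 0.22, SE 0.05, adjusted p = 0.00322). Trimmed-mean scaling ended the call of GMNN. CDT1 had 30.98, 34.6 and 30.2 FPKM in siRBCK1, against 29.2, 32.1 and 32.6 FPKM in siControl. Its libraries overlapped, and its log2 fold change of 0.03 had a 95% interval of -0.12 to 0.18 and turned to -0.04 under quantile normalization and -0.09 under trimmed-mean scaling. CDC6 mRNA was 1.17 ± 0.103 times that of CDT1 in siRBCK1 and 0.826 ± 0.0737 times in siControl (SD, n = 3 each), a ratio chosen after the values were seen and given with no test.

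The MCM2-7 ring, the core of the replicative helicase, had subunits called in both directions, although the ring holds them in equal number. MCM3 had the largest change of all members, at 113, 115 and 118 FPKM in siRBCK1, against 68.5, 71.6 and 51.1 FPKM in siControl (log2 fold change 0.86, SE 0.10, adjusted p = 8.64e-05). Its siControl replicate 3 was low, and without that library the estimate was 0.71. MCM2 had 30.9, 31.9 and 30.4 FPKM in siRBCK1, against 20.3, 24.4 and 18.8 FPKM in siControl (log2 fold change 0.54, SE 0.08, adjusted p = 0.000438). MCM6 had 19.1, 18.5 and 18.2 FPKM in siRBCK1, against 13.04, 13.9 and 11.6 FPKM in siControl (log2 fold change 0.50, SE 0.07, adjusted p = 0.00029). In each of these the lowest siRBCK1 library stood above the highest siControl library. MCM7, the most abundant of the 6, had 197, 207 and 206 FPKM in siRBCK1, against 148, 154 and 129 FPKM in siControl, with a log2 fold change of 0.50. All 4 of these genes were called higher under every setting.

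The other subunits of the ring, MCM4 and MCM5, had negative estimates. MCM4 had 36.2, 34.99 and 34.9 FPKM in siRBCK1, against 39.7, 41.3 and 40.3 FPKM in siControl and was called lower (log2 fold change -0.19, SE 0.05, adjusted p = 0.0105). The groups did not overlap, and the call was lost without siRBCK1 replicate 3 (adjusted p = 0.0519). MCM5 had 47.5, 49.1 and 47.8 FPKM in siRBCK1, against 46.96, 48.8 and 52.2 FPKM in siControl, with a log2 fold change of -0.03, a 95% interval of -0.16 to 0.09 and an adjusted p of 0.626. The ratio of subunits within a library does not depend on a factor that scales the whole library. It can change under quantile normalization and removal of the length and GC trends. MCM3 was 3.12, 3.28 and 3.38 times the level of MCM4 in siRBCK1 libraries, against 1.72, 1.74 and 1.27 times in siControl libraries. As a share of the summed FPKM of the ring, MCM4 made up 7.83% ± 0.286 in siRBCK1 and 12.3% ± 0.914 in siControl (SD, n = 3 each). MCM3 made up 25.5% ± 0.38 in siRBCK1 and 19.2% ± 1.98 in siControl, and MCM5 10.7% ± 0.142 in siRBCK1 and 15.0% ± 1.95 in siControl. These ratios and shares were looked at after the values were known and carry no test.

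**Figure D3:**
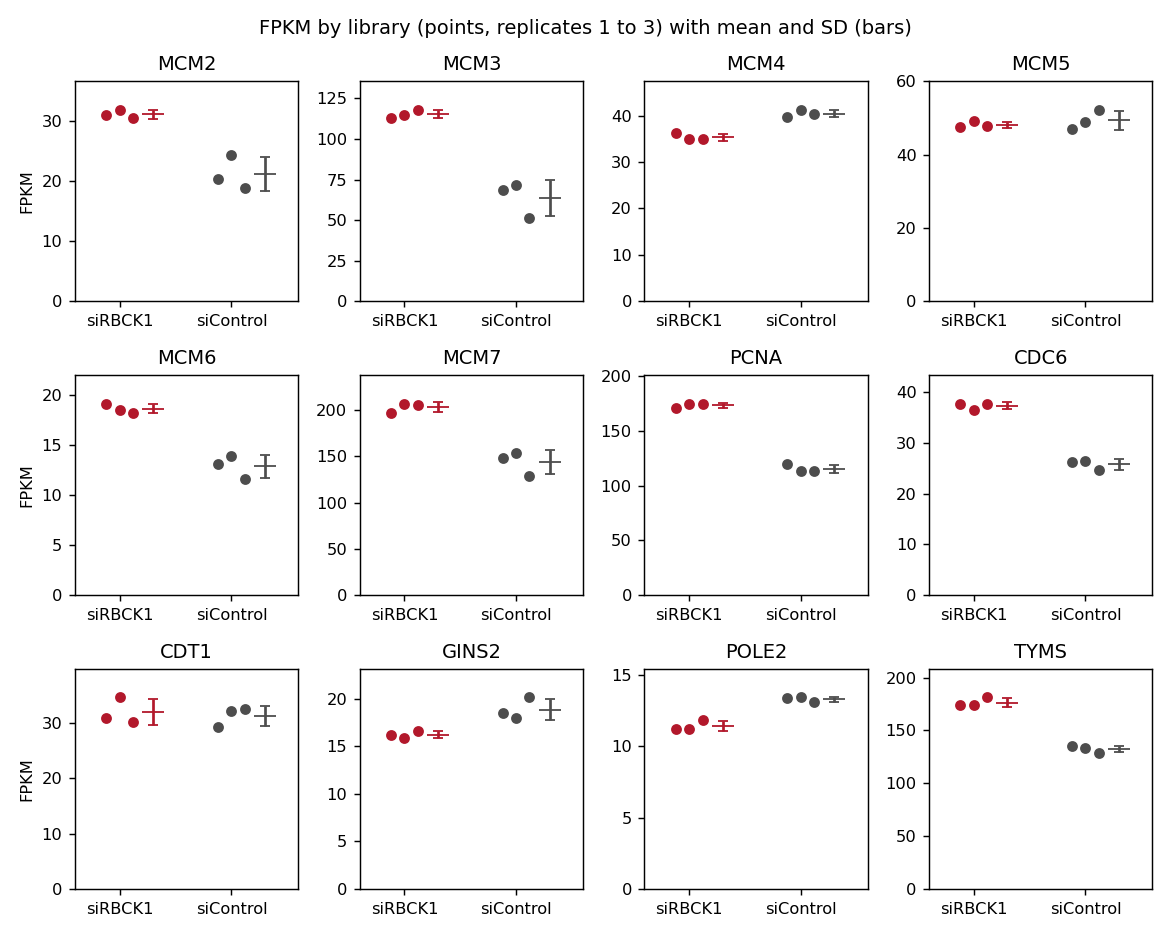
FPKM of 12 replication genes in each library (points) with the mean and SD beside them, siRBCK1 left and siControl right, every axis starting at 0. MCM2, MCM3, MCM6, MCM7, PCNA, CDC6 and TYMS are higher in all 3 siRBCK1 libraries, MCM4, GINS2 and POLE2 are lower in all 3, and the libraries of CDT1 and MCM5 overlap.

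Helicase activation had 7 genes called higher and 1 lower. CDC7, the catalytic subunit of the kinase that phosphorylates the MCM ring, had 9.37, 7.65 and 9.29 FPKM in siRBCK1, against 6.48, 6.12 and 5.07 FPKM in siControl (log2 fold change 0.50, SE 0.10, adjusted p = 0.00203). DBF4, its activating subunit, had 13.9, 13.9 and 13.6 FPKM in siRBCK1, against 12.99, 11.6 and 10.7 FPKM in siControl. MCM10, which helps the assembled helicase to start, had 10.7, 10.02 and 10.9 FPKM in siRBCK1, against 8.55, 9.84 and 7.83 FPKM in siControl. The calls of DBF4 and MCM10 were each lost under 10 of 14 alternatives, among them leaving out siControl replicate 2 or 3 or any siRBCK1 library for DBF4 (adjusted p 0.0113 to 0.835 over the settings), and siControl replicate 1 or 3 or siRBCK1 replicate 1 or 3 for MCM10 (adjusted p 0.00704 to 0.435). CDC45, the cofactor that stays with the moving ring, had 27.8, 30.9 and 29.3 FPKM in siRBCK1, against 24.2, 24.2 and 26.1 FPKM in siControl. That call was lost under quantile normalization, trimmed-mean scaling and without siRBCK1 replicate 2 (adjusted p up to 0.193).

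The 4 GINS subunits, like those of the MCM ring, differed in direction. GINS4 had 10.1, 11.2 and 9.69 FPKM in siRBCK1, against 7.66, 7.40 and 7.13 FPKM in siControl (log2 fold change 0.43, SE 0.08, adjusted p = 0.000868). GINS3 had 9.22, 9.19 and 10.2 FPKM in siRBCK1, against 6.35, 6.95 and 7.25 FPKM in siControl (log2 fold change 0.42, SE 0.08, adjusted p = 0.00113). GINS1 had 12.1, 11.7 and 12.3 FPKM in siRBCK1, against 10.01, 8.85 and 8.79 FPKM in siControl, with a log2 fold change of 0.35. These subunits were higher in every siRBCK1 library and under every setting. GINS2, the most abundant subunit, was called lower instead, at 16.2, 15.9 and 16.7 FPKM in siRBCK1, against 18.5, 18 and 20.2 FPKM in siControl (log2 fold change -0.20, adjusted p = 0.0211). Its call was lost without siRBCK1 replicate 1 or 2 (adjusted p up to 0.0724). GINS2 took 33.7% ± 0.55 of the summed GINS FPKM in siRBCK1 and 44.6% ± 1.7 in siControl (SD, n = 3 each), and the shares of GINS1, GINS3 and GINS4 were all higher in siRBCK1, with no overlap between libraries.

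All 3 genes of fork protection and coupling were called higher, under every setting that tested them. TIPIN, which pairs with TIMELESS at the fork, had 11.8, 13.6 and 12.4 FPKM in siRBCK1, against 8.60, 6.59 and 7.56 FPKM in siControl (log2 fold change 0.67, SE 0.09, adjusted p = 0.00022). WDHD1, also called AND-1, which links the helicase to polymerase alpha, had 8.16, 6.88 and 6.88 FPKM in siRBCK1, against 4.55, 5.02 and 3.96 FPKM in siControl (log2 fold change 0.59, SE 0.10, adjusted p = 0.000554). TIMELESS had 4.64, 4.73 and 4.68 FPKM in siRBCK1, against 3.10, 3.62 and 3.02 FPKM in siControl (log2 fold change 0.42, SE 0.08, adjusted p = 0.00166). TIMELESS was the least abundant of the 52 in siControl cells, and for all 3 genes every siRBCK1 library was above the highest siControl library. The exons of TIPIN share 579 bases with the processed pseudogene RPL9P25 on the same strand, whose reads could be assigned to either.

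Polymerase alpha-primase, which lays down the primers, was called higher for 3 of 4 subunits. PRIM1, the catalytic primase subunit, had 14.1, 14.6 and 14.2 FPKM in siRBCK1, against 10.1, 9.43 and 9.21 FPKM in siControl (log2 fold change 0.53, SE 0.07, adjusted p = 0.000102). POLA2 had 21.7, 23.8 and 22.9 FPKM in siRBCK1, against 15.9, 17.04 and 15.5 FPKM in siControl (log2 fold change 0.47, SE 0.06, adjusted p = 0.000189). POLA1, the catalytic polymerase subunit, had 7.17, 6.84 and 6.93 FPKM in siRBCK1, against 5.86, 6.44 and 4.99 FPKM in siControl (log2 fold change 0.24, SE 0.09, adjusted p = 0.0388). PRIM1 and POLA2 were called under every setting, whereas the call of POLA1 was lost under 11 of 14 alternatives, leaving out siControl replicate 1 or 3 or any siRBCK1 library among them (adjusted p 0.0141 to 0.477 over the settings). PRIM2, the regulatory primase subunit, had 17.4, 17.3 and 20.02 FPKM in siRBCK1, against 18.7, 16.6 and 16.7 FPKM in siControl, with overlapping groups and an adjusted p of 0.441. PRIM2 made up 29.3% ± 1.79 of the summed FPKM of the complex in siRBCK1 and 35.5% ± 1.81 in siControl (SD, n = 3 each). POLA2 shares 2012 exonic bases with the annotated gene AP000944.2, and PRIM1 362 with AC117378.1, both on the same strand. The division of reads within these pairs is uncertain.

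Polymerases delta and epsilon, which copy the bulk of the genome, had 1 gene called higher, 3 called lower and 2 not called, with a median log2 fold change of -0.09. POLE, the catalytic subunit of epsilon, had 8.42, 8.63 and 7.98 FPKM in siRBCK1, against 5.72, 6.98 and 5.25 FPKM in siControl (log2 fold change 0.43, SE 0.09, adjusted p = 0.00348). POLE2, its second subunit, had 11.2, 11.2 and 11.8 FPKM in siRBCK1, against 13.4, 13.4 and 13.1 FPKM in siControl (log2 fold change -0.20, SE 0.06, adjusted p = 0.0185). The libraries of neither gene overlapped, and the ratio of POLE to POLE2 was 0.752, 0.768 and 0.675 in siRBCK1, against 0.427, 0.520 and 0.401 in siControl, a ratio given with no test because it was chosen after the values were seen. The call of POLE2 was lost without siRBCK1 replicate 1 or 2 (adjusted p up to 0.0734). POLE3, a histone-fold subunit, had 74.7, 66.5 and 69.3 FPKM in siRBCK1, against 71.2, 71.3 and 64.97 FPKM in siControl, with overlapping groups and an adjusted p of 0.786.

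In polymerase delta, POLD3, an accessory subunit, fell most, to 8.86, 7.38 and 9.14 FPKM in siRBCK1, against 11.4, 11.6 and 10 FPKM in siControl (log2 fold change -0.34, SE 0.09, adjusted p = 0.00876). This call was lost in an unmoderated linear model (adjusted p = 0.0682). POLD2 was the most abundant member of all 52 in siControl and had 242, 241 and 237 FPKM in siRBCK1, against 258, 254 and 289 FPKM in siControl (log2 fold change -0.15, adjusted p = 0.0439). The call of POLD2 was lost under 10 of 14 alternatives, including without siControl replicate 1 or 3 or any siRBCK1 library (adjusted p 0.0135 to 0.425 over the settings). POLD1, the catalytic subunit, had 28.1, 30.6 and 27.9 FPKM in siRBCK1, against 29.4, 29.98 and 28.9 FPKM in siControl and was not called (adjusted p = 0.681). Shares of the 3 subunits within the summed FPKM of the complex overlapped between the groups.

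The sliding clamp PCNA, a ring that holds the polymerases on DNA, had the lowest adjusted p of all members. Its values were 171, 174 and 175 FPKM in siRBCK1, against 119.7, 113 and 113 FPKM in siControl (log2 fold change 0.58, SE 0.05, adjusted p = 7.19e-06). All 3 siRBCK1 libraries were above the highest siControl library. RFC1, the large subunit of the clamp loader, had 11.5, 11.1 and 11.1 FPKM in siRBCK1, against 7.12, 7.27 and 5.66 FPKM in siControl (log2 fold change 0.67, SE 0.09, adjusted p = 0.000169). RFC3 had 19.3, 17.3 and 18.7 FPKM in siRBCK1, against 14.7, 14.3 and 12.5 FPKM in siControl (log2 fold change 0.39, SE 0.08, adjusted p = 0.0015). These genes were called under every setting.

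The smaller loader subunits varied. RFC4 had 42.7, 45.9 and 47.1 FPKM in siRBCK1, against 38.95, 37.1 and 37.7 FPKM in siControl. RFC5 had 20.2, 19.4 and 19.7 FPKM in siRBCK1, against 16.5, 19.1 and 15.8 FPKM in siControl. The call of RFC4 (adjusted p = 0.00413) was lost under trimmed-mean scaling alone, and that of RFC5 (adjusted p = 0.0409) under 11 of 14 alternatives, including without siControl replicate 1 or 3 or any siRBCK1 library (adjusted p 0.00596 to 0.486 over the settings). RFC2, the most abundant loader subunit, had 68.6, 71.2 and 73.4 FPKM in siRBCK1, against 78.7, 74.05 and 84.5 FPKM in siControl, with no overlap between the groups and siRBCK1 lower. It missed the threshold (adjusted p = 0.0507) and passed it as lower under 5 of 14 alternatives. RFC2 made up 42.9% ± 0.52 of the summed FPKM of the loader in siRBCK1 and 51.1% ± 2.72 in siControl, and RFC1 made up 6.76% ± 0.282 in siRBCK1 and 4.33% ± 0.618 in siControl (SD, n = 3 each).

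**Figure D4:**
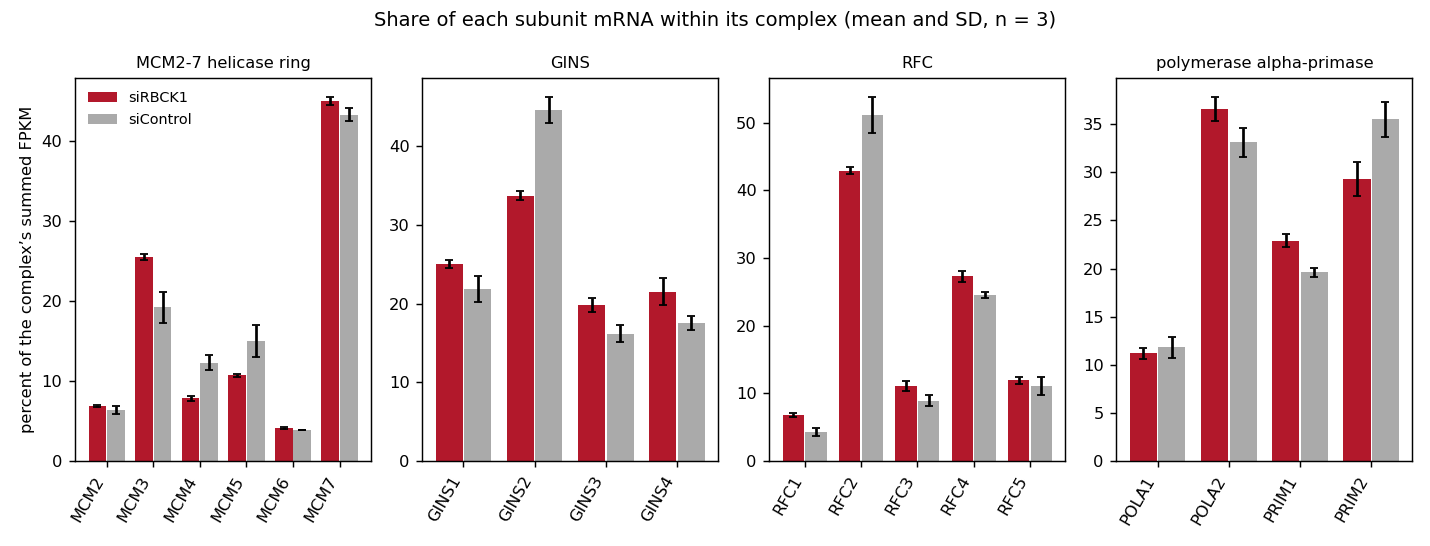
Share of each subunit in the summed FPKM of its complex, as a percent, for the MCM2-7 ring, GINS, the clamp loader RFC and polymerase alpha-primase. Bars are means and error bars SD over 3 libraries, siRBCK1 left of siControl, and MCM4, MCM5, GINS2, RFC2 and PRIM2 take smaller shares in siRBCK1.

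The genes of Okazaki fragment joining were both called higher. FEN1, the nuclease that trims the flap, had 72.7, 76.9 and 73.8 FPKM in siRBCK1, against 60.7, 62.7 and 56.7 FPKM in siControl (log2 fold change 0.31, SE 0.06, adjusted p = 0.001). LIG1, the ligase that seals the nick, had 19.2, 20.4 and 20.9 FPKM in siRBCK1, against 15.8, 17.4 and 16.3 FPKM in siControl (log2 fold change 0.27, SE 0.06, adjusted p = 0.0045). Neither pair of groups overlapped, and the call of LIG1 was lost under trimmed-mean scaling (adjusted p = 0.0508).

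RPA, the heterotrimer that coats single-stranded DNA, had 1 of 3 subunits called. RPA2 was called higher, at 54.03, 52.1 and 56.7 FPKM in siRBCK1, against 49.4, 48.2 and 49.98 FPKM in siControl (log2 fold change 0.14, adjusted p = 0.0458), and the call was lost under 9 of 14 alternatives, including omission of siRBCK1 replicate 1 or 3, or of siControl replicate 1 or 2 (adjusted p 0.0317 to 0.775 over the settings). RPA1 had 41.4, 38.97 and 43.5 FPKM in siRBCK1, against 39.3, 41.9 and 35.8 FPKM in siControl, with overlapping groups. RPA3 had 19.5, 20.7 and 19.6 FPKM in siRBCK1, against 18.8, 17.7 and 17.7 FPKM in siControl, with no overlap and an adjusted p of 0.0836. The share of each RPA subunit within the complex overlapped between the groups.

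Nucleotide supply was called higher for 4 of 5 genes. RRM1, the large subunit of ribonucleotide reductase, had 61.3, 61.2 and 61.98 FPKM in siRBCK1, against 45.96, 46.6 and 38.9 FPKM in siControl (log2 fold change 0.48, SE 0.07, adjusted p = 0.000255). RRM2, its small subunit, had 92.2, 90.95 and 91.02 FPKM in siRBCK1, against 72.7, 74.96 and 71.7 FPKM in siControl, with a log2 fold change of 0.32. TYMS, the thymidylate synthase, had 174, 174 and 181 FPKM in siRBCK1, against 135, 134 and 129 FPKM in siControl (log2 fold change 0.41, SE 0.05, adjusted p = 7.15e-05). In all 3 the lowest siRBCK1 library exceeded the highest siControl library, and the calls held under every setting. RRM2 shares 1077 exonic bases with the annotated gene AC007240.1 on the same strand, so the division of reads between them is uncertain. DUT, which removes dUTP, had 29.04, 37 and 38.4 FPKM in siRBCK1, against 26.7, 19.7 and 22.4 FPKM in siControl (log2 fold change 0.58, SE 0.12, adjusted p = 0.00199). The DUT call was lost in the unmoderated model (adjusted p = 0.0634), its siRBCK1 replicate 1 was the lowest of its group, and its 8 named pseudogenes make the assignment of reads uncertain.

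TK1, the salvage thymidine kinase, was the 1 nucleotide gene not called. It had 215, 217 and 215 FPKM in siRBCK1, against 216, 215 and 247 FPKM in siControl, with overlapping groups, a log2 fold change of -0.06 and a 95% interval of -0.19 to 0.07. The ratio of TYMS to TK1 was 0.811, 0.800 and 0.843 in siRBCK1, against 0.625, 0.621 and 0.523 in siControl, again with no test. TYMS shares 967 exonic bases with ENOSF1 on the opposite strand. Whether strand was used in counting is not given in the sources used here, so reads of such pairs cannot be told apart. Among them are MCM7 with AP4M1 (392 bases) and ORC4 with ACVR2A (430 bases). Antisense genes overlap MCM2 (1113 bases), GINS4 (1159 bases), GINS3 (558 bases) and DUT (533 bases). POLD1 shares 426 exonic bases with AC020909.1, and POLD3 123 with AP001372.2, both on the same strand and with an uncertain division of reads. Named pseudogenes, as for DUT, also exist for PCNA, RRM2, TYMS, FEN1, RFC3, RFC5, RPA2, POLD2 and DBF4. The assignment of some of their reads is therefore uncertain.

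**Figure D5:**
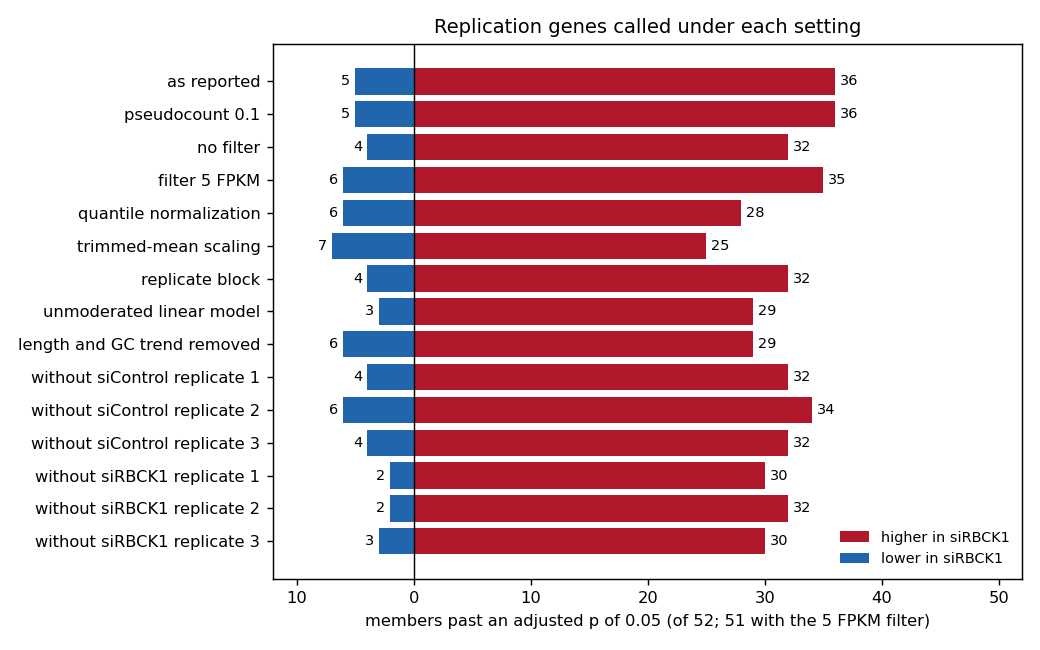
Number of replication genes called higher (right of 0) and lower (left of 0) at an adjusted p below 0.05, as reported and under each of 14 alternative settings. Between 25 and 36 were higher and between 2 and 7 lower.

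Other genes of DNA replication that are not members were taken from a list of 69, of which 68 were tested. Of these, 36 were higher, 11 lower and 21 were not called, with a median log2 fold change of 0.24, beside 36.8% higher, 17.1% lower and a median of 0.11 over all tested genes. Trimmed-mean scaling gave 27 higher and 12 lower, with a median of 0.13, against 24.7% higher and 25.4% lower of all tested genes. Removal of the length and GC trends gave 28 higher and 13 lower, with a median of 0.09, against 24.9% and 26.2%. The chromatin assembly factors that follow the fork had 8 higher and 4 not called of 12, and the nucleotide enzymes had 12 higher and 8 lower of 25. Trimmed-mean scaling left 5 chromatin assembly factors higher, and 8 nucleotide enzymes higher and 9 lower. The largest change of the list was that of CHTF8, with a log2 fold change of 1.27 (SE 0.24). It averaged 18.0 ± 3.76 FPKM in siRBCK1 and 7.17 ± 2.85 FPKM in siControl (SD, n = 3 each). SUPT16H, a subunit of the FACT histone chaperone, averaged 36.1 ± 1.80 FPKM in siRBCK1 and 19.6 ± 4.25 FPKM in siControl (SD, n = 3 each), with a log2 fold change of 0.87. NASP, a histone chaperone, averaged 72.3 ± 4.98 FPKM in siRBCK1 and 44.1 ± 3.63 FPKM in siControl. DTL, an adaptor for the destruction of CDT1, averaged 20.9 ± 0.656 FPKM in siRBCK1 and 14.0 ± 0.719 FPKM in siControl. DBF4B, an alternative partner of CDC7, fell to 18.5 ± 0.242 FPKM in siRBCK1, against 27.4 ± 3.48 FPKM in siControl, the opposite direction to DBF4.

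Of 56 tested genes of the cell cycle at large, 29 were higher and 11 lower, with a median of 0.19. Over all tested genes 36.8% were higher and 17.1% lower, with a median of 0.11. Trimmed-mean scaling gave 22 higher and 14 lower of the 56, against 24.7% higher and 25.4% lower of all tested genes under that scaling. Removal of the length and GC trends gave 24 higher and 14 lower, against 24.9% and 26.2%. As reported, the G1/S list had 12 of 21 higher and 2 lower. The 2 lower were CCND1, with a log2 fold change of -0.38, and CDK4, with -0.20. The largest change of the list, 0.91, was that of RBL1, and RBL2 (0.55) and RB1 (0.38) were also higher. E2F1 averaged 52.9 ± 2.09 FPKM in siRBCK1 and 31.4 ± 3.52 FPKM in siControl (SD, n = 3 each), with a log2 fold change of 0.74. CDK2 averaged 50.6 ± 1.31 FPKM in siRBCK1 and 29.9 ± 4.22 FPKM in siControl. Of 6 tested genes of CDK inhibitors, 1 was higher, 2 were lower and 3 were not called. CDKN2C, which encodes p18, averaged 39.7 ± 1.98 FPKM in siRBCK1 and 33.6 ± 1.86 FPKM in siControl and was called higher (log2 fold change 0.23, adjusted p = 0.00877). CDKN1A, which encodes p21, fell to 86.3 ± 1.30 FPKM in siRBCK1, against 122 ± 1.401 FPKM in siControl. In the list of G2/M and mitosis 16 of 29 were higher and 7 lower, from KIF20A, a mitotic kinesin, at 12.5 ± 0.749 FPKM in siRBCK1 and 31.0 ± 5.88 FPKM in siControl, to CENPF, a kinetochore protein, at 15.3 ± 0.287 FPKM in siRBCK1 and 8.44 ± 0.930 FPKM in siControl. The other genes of that list called lower were CDK1, PLK1, FOXM1, CCNB1, CDC20 and CDC25C, and MKI67 was not called (log2 fold change -0.12). Under trimmed-mean scaling the G2/M list had 12 higher and 9 lower, and the G1/S list 10 higher and 2 lower. The part of these cell cycle genes in the values of the replication genes was not tested.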

How the data were processed

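The deposited values are FPKM with 2 decimals, made by the authors from sequencing on the BGI platform. The build named in the submitters' processing notes is GRCh38. The sources used here do not give the aligner, counting tool, annotation or strand setting. Symbols came from RefSeq for 17022 gene numbers. The table of siRBCK1 replicate 2 carries the name of replicate 1 in its header. The pair shared 3.03% of values among genes above 0, beside 2.99% for siControl replicates 1 and 2, so both were used.

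FPKM values were transformed to log2(FPKM + 1). The 11135 genes that reached 1 FPKM in 3 or more libraries entered a limma fit (version 3.58.1, R 4.3.3) with a mean-variance trend. Tests were two-sided, with Benjamini-Hochberg adjustment over these genes. The procedure was also run on simulated data, with an outcome that is not given here. Fold changes on this scale understate the change of low genes. Exon overlaps came from the GENCODE annotation on GRCh38.

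Every member was named, with full statistics for up to 3 called members of a role. Other lists could give up to 4 called genes whose mean reached 5 FPKM in a group, and some of these are shown. Some further genes of the G1/S and G2/M lists are named as well. The members and lists were chosen with earlier results of these data known. Alternatives were a smaller pseudocount (0.1), testing without the filter or with a 5 FPKM filter, quantile or trimmed-mean normalization, a replicate block, a linear model without moderation, removal of the length and GC trends, and omission of each library in turn.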

Additional observations from a re-analysis of the deposited data

How the results depend on the processing

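Genes called lower numbered 1899 as reported and 2895 after removal of the length and GC trends. Members called lower numbered 5 as reported, 3 in the unmoderated model and 2 to 6 with a library left out (2 without siRBCK1 replicate 1 or 2, 3 without siRBCK1 replicate 3). Lower genes of the cell cycle at large numbered 11 as reported and 7 to 13 with a library left out (7 without siRBCK1 replicate 1). The median of the members was 0.29 as reported, 0.20 under quantile normalization, 0.17 under trimmed-mean scaling, 0.16 with the trends removed and 0.27 to 0.32 with a library left out. Of called genes, 68.4% of all tested genes and 72.5% of the cell cycle genes were higher as reported, against 49.3% and 61.1% under trimmed-mean scaling.

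No called member changed direction. Among those not called, the estimate changed sign for ORC2 with the trends removed (-0.03), for CDT1 under quantile normalization (-0.04), trimmed-mean scaling (-0.09) and trend removal (-0.02), for PRIM2 under the same 3 (-0.03, -0.04 and -0.09), for POLE3 under trimmed-mean scaling and trend removal (-0.10 both), for RPA1 under the same 2 (-0.03 and -0.07), and for TK1 under quantile normalization (0.02). With a library left out, estimates ranged over -0.03 to 0.07 for CDT1, -0.07 to 0.01 for MCM5, -0.02 to 0.06 for POLE3 and -0.10 to 0.00 for TK1.

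No source says that a replicate number marks a shared culture or day. The deviations of same-numbered libraries from their group means correlated at -0.06, -0.187 and -0.038, and those of other pairs at -0.151 to 0.229. With 3 libraries per group, these values cannot decide whether the numbers mark pairs. With the replicate block, 32 members were higher and 4 lower, and over all genes 3812 were higher and 1739 lower. Depth is unknown, so no limit from counting could be given.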
